A study of Arabidopsis thaliana with 5 samples.

Results

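The regions occupied by AtSMOS1-GFP in both ChIP-Seq replicates were described here, by the genes and gene families nearest to them, and set against the peaks of a wild-type (WT) input. AtSMOS1 is an Arabidopsis transcription factor with AP2 domains. A region was taken where a peak of replicate 1 and a peak of replicate 2 shared at least 1 bp on chromosomes 1 to 5, and 4228 regions were found. They came from 5438 peaks of replicate 1 and 6934 peaks of replicate 2, and the input list held 5695 peaks. The 5 lists of the series, which include those of the partner protein SCL28, held 18951 peaks in all on these chromosomes. Long peaks on 2 genes were left out. They lay on the AtSMOS1 gene itself (chr2:17399816-17404273, fold enrichments of 15.2 in replicate 1 and 14.5 in replicate 2) and on YUC5 (chr5:17648770-17650229, 25.04 and 29.1). The AtSMOS1-GFP construct carried genomic DNA of AtSMOS1 with its promoter. Binding and extra DNA from the construct therefore cannot be told apart at the AtSMOS1 region, which is 4458 bp long.

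Chromatin of whole Arabidopsis seedlings was used in all samples. The ChIP seedlings carried AtSMOS1 fused to GFP under the AtSMOS1 promoter in the Col background, and chromatin was precipitated with an antibody against GFP. The input was total chromatin of WT Col seedlings without precipitation, in 1 sample. A whole seedling mixes organs and cell types, and the input was not precipitated, so that it does not measure what the antibody recovers without AtSMOS1-GFP. GEO's labels spell AtSMOS1 as SNOS1 and SCL28 as E1M. In the list labelled as replicate 2 of AtSMOS1, all 6934 peak names carried the name of SCL28, while 81.1% of the AtSMOS1 replicate 1 peaks (95% confidence interval 79.99 to 82.1%) and 63.3% of the SCL28 replicate 1 peaks (58.9 to 67.6%) overlapped a peak of that list. The list was used as labelled, and values from replicate 1 alone are given after the gene lists.

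AP2-type factors bind short DNA sequences, mostly in promoters, and change the transcription of the genes beside them. AtSMOS1 is orthologous to rice SMOS1, which controls organ size in rice, and pairs with SCL28, a GRAS family protein. SIM/SMR proteins bind and inhibit cyclin-dependent kinases, and cell size depends on how growth and division are balanced. A ChIP peak shows where a protein was recovered on chromatin and does not show that the nearest gene responds to it.

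The 20 regions with the highest mean fold enrichment of the replicates included 6 with the SCL28/AtSMOS1 motif, a degenerate sequence of 12 bases that the study derived from peaks of the same experiment. Each was found as an exact match to this motif, so that the matched bases are alike by selection. The 30 bases around each match are given, with the motif in capitals, in the orientation of the motif and with TAIR10 positions.
AT4G09160 (chr4:5839655-5839684, strand +): agagcccaaCATTGGATTCCTcttctttga
SMR2 (chr1:2565538-2565567, strand +): aatggttggCATAGGATACCAtttcatcaa
AT1G18470 (chr1:6360250-6360279, strand +): atttatttcCTTTGGATTCCTtttgttttt
AT1G70590 (chr1:26617670-26617699, strand -): ttgtaattgCATAGGATTCCAttcagcttg
AT5G48790 (chr5:19782513-19782542, strand +): tgttgtttgCATTGGATGCTTgtttgggta
AT4G02100 (chr4:929940-929969, strand -): gatgaagttCTTTGGATCCTTtcctcttcc

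The G-box (CACGTG, which reads alike on both strands) is the core recognized by many bHLH and bZIP factors and was present in 4 of the 20 highest regions, none of which held the 12-base motif. The 30 bases around each G-box are given for these 4 regions, with the G-box in capitals.
AT3G00450 (chr3:9737556-9737585, strand +): atccactttgatCACGTGtcggtcgagata
PUB18, first (chr1:3484342-3484371, strand +): taacttcatgacCACGTGgatcctcgcaca
PUB18, second (chr1:3484410-3484439, strand +): ttcgacggatctCACGTGgcactctgtcag
AT3G53380 (chr3:19791584-19791613, strand +): gatgtgtaacgcCACGTGggtttttccaac
AT4G36170, first (chr4:17119613-17119642, strand +): agtggacttttcCACGTGcgaaaacgacag
AT4G36170, second (chr4:17119671-17119700, strand +): acgaacttgaggCACGTGacgacatcagtg

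The 200 bp centred on the summit are given for SMR2 (AT1G08180), where capitals mark the 12-base motif, and for TRN2, WRKY22 and PP2-A5. The windows of these last genes hold neither motif and are given for comparison without capitals, although they are among the 6 highest regions.
SMR2 (chr1:2565442-2565641, strand +): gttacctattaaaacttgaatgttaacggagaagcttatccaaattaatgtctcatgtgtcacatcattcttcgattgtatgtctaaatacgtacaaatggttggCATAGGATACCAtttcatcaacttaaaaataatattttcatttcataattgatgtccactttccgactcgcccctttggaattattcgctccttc
TRN2 (chr5:18951922-18952121, strand +): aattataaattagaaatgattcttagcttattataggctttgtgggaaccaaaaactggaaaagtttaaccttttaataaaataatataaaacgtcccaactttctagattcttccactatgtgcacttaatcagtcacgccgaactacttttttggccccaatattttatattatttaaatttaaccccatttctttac
WRKY22 (chr4:525249-525448, strand +): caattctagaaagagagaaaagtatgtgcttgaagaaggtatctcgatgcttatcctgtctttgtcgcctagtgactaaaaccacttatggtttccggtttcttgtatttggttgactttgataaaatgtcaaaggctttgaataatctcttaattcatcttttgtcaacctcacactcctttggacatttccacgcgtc
PP2-A5 (chr1:24292056-24292255, strand +): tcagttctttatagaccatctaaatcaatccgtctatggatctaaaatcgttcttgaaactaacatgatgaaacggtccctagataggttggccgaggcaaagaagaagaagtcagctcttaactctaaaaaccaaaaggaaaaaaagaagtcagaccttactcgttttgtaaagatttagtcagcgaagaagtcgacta

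The highest mean fold enrichment was found at AT4G09160, a SEC14-type lipid transfer protein gene, with 18.7 in replicate 1 and 17.5 in replicate 2. Its summit lay 61 bp after the transcription start site (TSS), in an exon outside the coding sequence, and the summits of both replicates fell on the same base. At TRN2, a tetraspanin gene that acts in leaf and root patterning, the values were 19.6 and 15.5, with the summit in an intron. WRKY22, a factor of immune signalling, followed with 13.0 and 15.7 at 1100 bp upstream of the TSS. The fourth region lay 6886 bp past the start and 5333 bp past the end of AT5G29560, a caleosin-related gene. Its values were 16.4 and 9.84, the least even between replicates of these regions. At SMR2, a cyclin-dependent kinase inhibitor, the values were 11.7 and 12.9 at 224 bp upstream of the TSS, and at PP2-A5, a phloem lectin gene, 10.2 and 12.2 at 216 bp upstream. These 6 regions were the only ones with a mean of at least 10, and 22 regions reached 8.

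The other regions among the 20 highest had means between 8.26 and 9.44. Among the genes nearest to them were PUB18, a U-box ubiquitin ligase that dampens abscisic acid responses (8.78 and 8.95), and AT1G70590, an F-box protein gene (10.3 and 8.51). Others were the lectin receptor kinase gene AT3G53380 (7.73 and 9.64), the kinesin-type motor gene AT5G66310 (9.66 and 8.14), and PFK4, a phosphofructokinase of glycolysis (9.12 and 8.08). AT1G69160 (9.18 and 9.71) and AT1G57680 (9.38 and 9.06) also belonged to this set. Transcription factors in this set, beside WRKY22, were AT5G07580, an ethylene response factor (8.46 and 8.47), and LBD41, a LOB domain factor (8.43 and 8.14). SCL28 peaks of both replicates overlapped 12 of these 20 regions, against 214 (5.06%) of all 4228, and no region of the 20 overlapped an input peak. The share of regions with SCL28 peaks was 12.3% in the quintile with the highest mean fold and 1.18% in the lowest quintile. The study differs within itself on the SCL28-GFP seedlings. Its results name the strong RPS5A promoter, and its methods name the SCL28 promoter. These overlaps may therefore not reflect SCL28 at its native level.

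**Figure D1:**
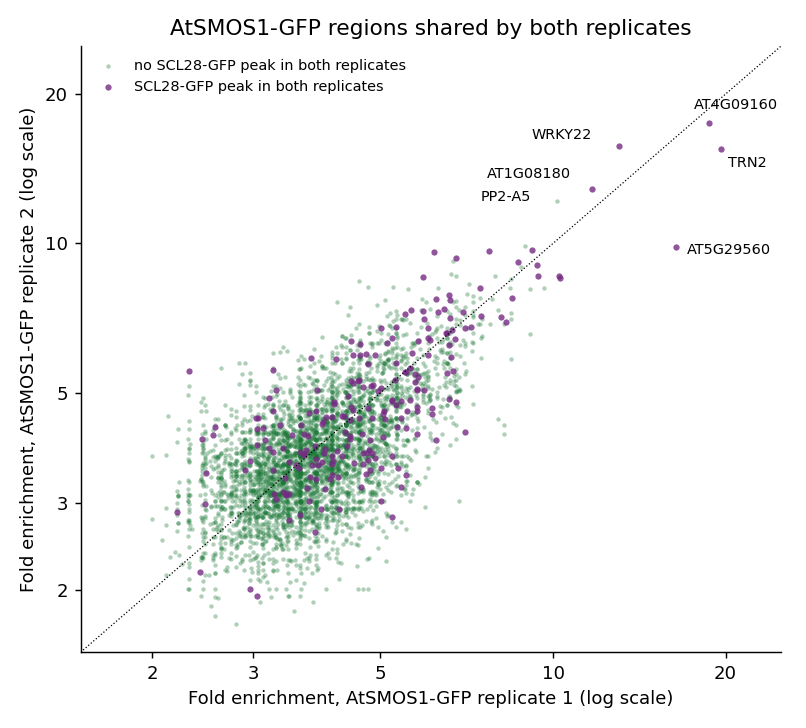
Fold enrichment of the 4228 AtSMOS1-GFP regions in replicate 1 (horizontal) and replicate 2 (vertical), both on log scales, with equal values on the dotted line. Purple points are the 214 regions that overlap SCL28-GFP peaks of both replicates, and the 6 labelled regions have a mean of at least 10.

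Most regions were far lower than these. The mean fold had a median of 3.77 and an interquartile range of 3.29 to 4.42, and 571 regions reached 5. The ratio of replicate 2 to replicate 1 had a median of 0.971, and 91.7% of the regions (90.8 to 92.5%) were within 1.5-fold. Across regions, Pearson's r of the fold enrichments was 0.69 and Spearman's rho 0.55 (n = 4228 regions called in both lists, with the background estimated by the caller in each). Of the shared regions, 13 of the 20 highest and 54 of the 100 highest were the same in both replicates. Summits were a median of 48.5 bp apart. Peaks found in replicate 1 alone (1030) and replicate 2 alone (2697) had lower medians, 3.33 and 2.97, than the peaks of the same lists in shared regions, 3.82 and 3.73.

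The regions gathered closely around gene starts. In the 100 bp before the TSS of the nearest gene lay 430 summits (10.2%), against 2.16% of the input summits, and the following 100 bp held 429 (10.15%), against 2.86%. Input summits were instead densest 200 to 300 bp after the TSS, with 6.39%, where 1.96% of the AtSMOS1-GFP summits lay. Summits within 1 kb upstream of any TSS made up 46.7% of the regions (45.2 to 48.3%) and 30.2% of the input peaks (29.0 to 31.4%). Coding sequence held 83 summits (1.96%, 1.57 to 2.43%), against 42.8% of the input summits (41.5 to 44.1%). Exons outside the coding sequence, which are untranslated regions or exons of non-coding genes, held 27.4% against 6.64%. Promoters shared by 2 genes that are transcribed away from each other held 318 summits (7.52%), against 3.74% of the input summits. The reporting summary of the study names the input as the control of peak calling, so that places rich in input reads were harder to call in the ChIP lists, and the part of this in the differences from the input peaks was not tested. Overlap with input peaks, found for 28 regions (0.662%, 0.440 to 0.956%), was limited by the same step.

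**Figure D2:**
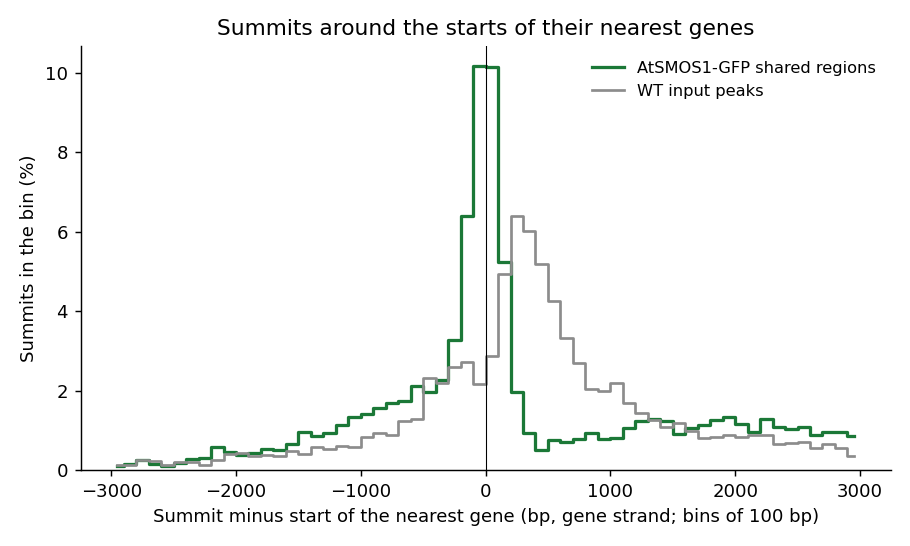
Position of summits relative to the start of the nearest gene (horizontal, bp on the gene strand) as a percentage of all summits in bins of 100 bp (vertical), for AtSMOS1-GFP shared regions (green) and WT input peaks (grey). AtSMOS1-GFP summits peak in the bins on both sides of the start, at 10.2% and 10.15%, and input summits after it, at 6.39%.

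The position around genes differed little with the strength of the region. Summits within 1 kb upstream of a TSS made up 47.9% of the highest quintile by mean fold and 46.0% of the lowest quintile. Of the 4228 summits, 671 (15.9%) lay within 1 kb past the end of the nearest gene, against 8.53% in the input. The CDK inhibitor genes SMR6 (AT5G40460), SMR8 (AT1G10690) and SMR9 (AT1G51355) were among the genes with their highest region there.

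At least 1 region lay nearest to 3503 of 33056 annotated genes (10.6%), and at least 1 input peak to 4781 (14.5%). Among 27444 protein-coding genes, these were 3082 (11.2%) and 4385 (16.0%). Both lists had 656 genes in common, which are 18.7% of the genes of AtSMOS1-GFP and 13.7% of those of the input. The counts of gene families below are read against 11.2% for AtSMOS1-GFP and 16.0% for the input. Families were taken from domain and name annotations, and each share is a description of these lists with no test, since 2 ChIP lists and 1 input list give no error for a comparison between samples.

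Of 1583 genes in 22 transcription factor families, 338 (21.4%, 19.4 to 23.5%) were nearest to a region, against 20.2% (18.2 to 22.2%) for input peaks. For the other protein-coding genes the shares were 10.6% for AtSMOS1-GFP and 15.7% for the input. The median gap upstream of the gene was 1979 bp for the transcription factor genes and 961 bp for all coding genes, and its part in these shares was not tested. In the quintile of coding genes with the shortest stretch of chromosome nearest to them, 7.45% of the transcription factor genes and 4.45% of the other genes had a region, and in the quintile with the longest stretch 29.9% and 14.7%. In the input the same quintiles had 11.7% and 10.15%, and 30.2% and 25.02%.

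Among the families, the TCP factors, which act on cell proliferation in leaves, had 10 of 24 genes with a region (41.7%), against 37.5% in the input, and TCP14 had 4 regions. The AP2/ERF family, to which AtSMOS1 belongs, had 52 of 145 (35.9%) against 37.9%. Its highest member after AT5G07580 was AT1G22190 (5.62 in replicate 1 and 6.91 in replicate 2), and CBF2, a regulator of cold responses, had 3.63 and 5.94. The GRAS family, to which SCL28 belongs, had 14 of 34 (41.2%) against 47.1%, led by AT5G67411 (7.23 and 6.34), whose window also holds a G-box, with RGA1, a DELLA repressor of gibberellin signalling, at 5.18 and 3.92. These 3 families thus had high shares in both lists.

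Many SBP factors, but not all, promote phase change and are targets of miR156. The family had 7 of 17 (41.2%, 18.4 to 67.1%) against 11.8% (1.46 to 36.4%), a difference within the counting intervals. SPL1 (5.10 and 4.43) was the highest of its members. The WRKY family had 17 of 73 (23.3%) against 17.8%, and after WRKY22 came WRKY33, which controls defence against fungi (5.31 and 6.16, 106 bp upstream of the TSS), and WRKY48 (5.56 and 5.31, 63 bp upstream). In the bHLH family 34 of 158 genes had a region (21.5% against 15.2%), among them HBI1, a growth-promoting factor (5.73 and 6.30). Homeodomain genes had 25 of 97 (25.8% against 26.8%), led by HB-2, a factor of shade avoidance (7.46 and 7.75), and PHB, which sets the upper side of leaves (6.03 and 6.91). MYB and related genes had 59 of 302 (19.5% against 16.6%), with MYBL2, a repressor of anthocyanin synthesis, at 4.77 and 8.17. The lowest shares were those of MADS factors, with 7 of 106 (6.60%, 2.70 to 13.1%, against 11.3%), and NF-Y subunits, with 2 of 35 (5.71%, 0.700 to 19.2%, against 11.4%). Both intervals include the 11.2% of all coding genes.

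**Figure D3:**
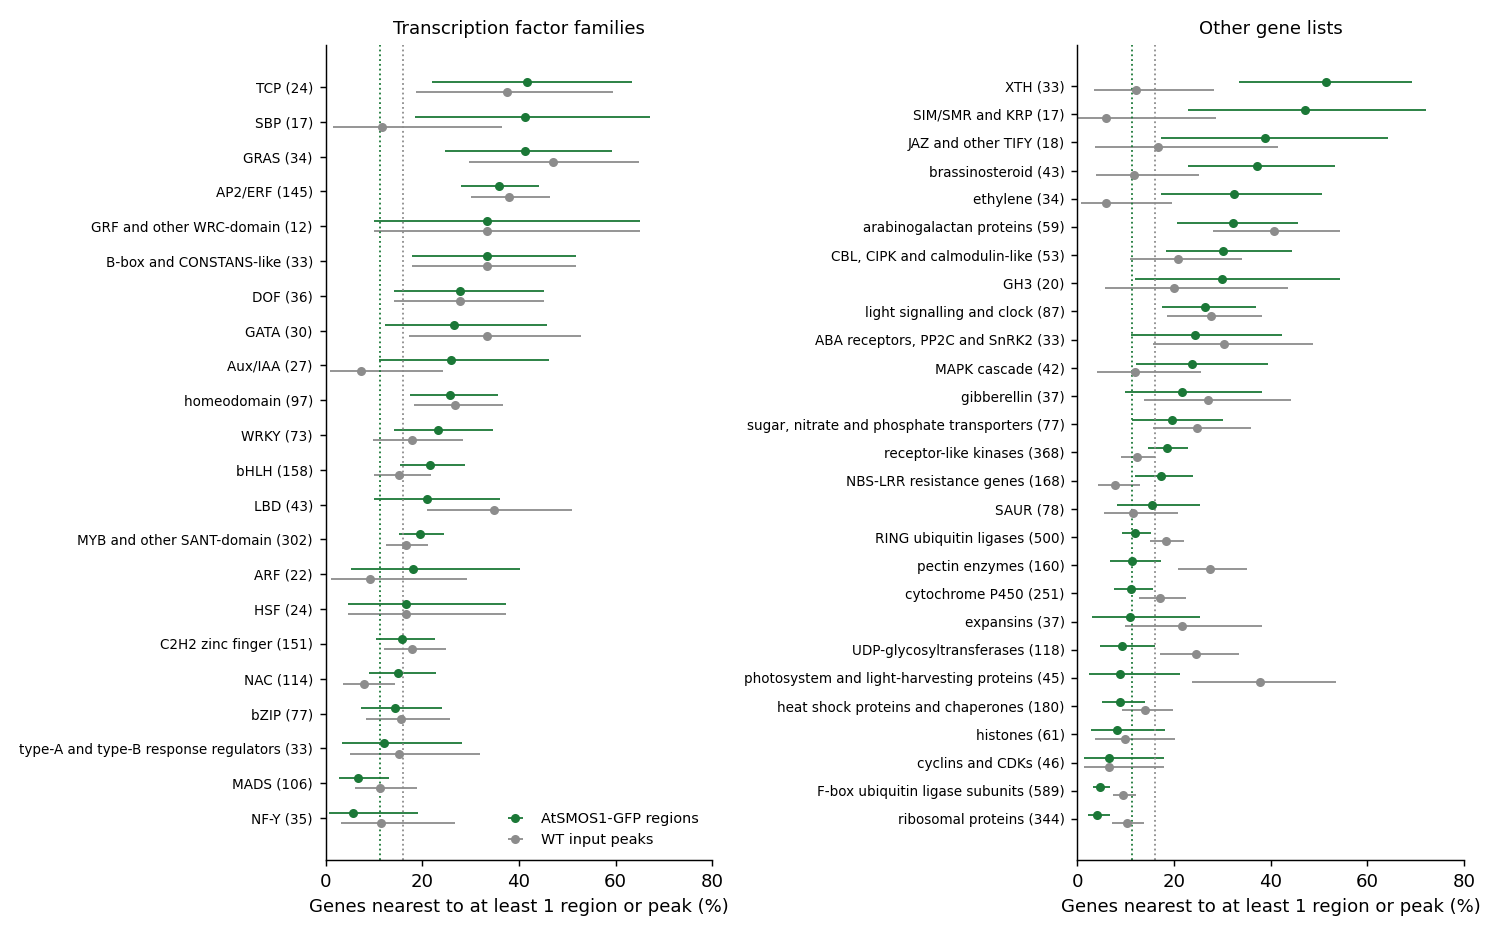
Percentage of the genes in each list that were nearest to at least 1 AtSMOS1-GFP region (green) or WT input peak (grey), with exact 95% binomial intervals and the number of genes in parentheses. Dotted lines mark all protein-coding genes, 11.2% for AtSMOS1-GFP and 16.0% for the input. XTH genes have the highest green share, 51.5%, beside 12.1% in grey.

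Of the lists outside transcription factors, the XTH genes had the highest share. XTH enzymes cut and rejoin xyloglucan chains in the cell wall and so loosen or strengthen it, and 17 of 33 were nearest to a region (51.5%, 33.5 to 69.2%), against 4 for input peaks (12.1%, 3.40 to 28.2%). Together they had 31 regions, with 5 at XTH24 and 3 each at XTH15, XTH18 and EXGT-A3. XTH4 (5.54 in replicate 1 and 7.03 in replicate 2) and XTH15 (6.86 and 5.04) were the highest, with summits 71 and 404 bp upstream of the TSS. At TCH4, first known as a touch-induced gene, a single region of 2287 bp ran along nearly the whole gene of 1675 bp (4.42 and 6.09). XTH17, XTH18, XTH19 and XTH24 each had a region between 91 bp before and 140 bp after the TSS, and the last 3 of these lie side by side on chromosome 4. Expansins and pectin enzymes did not stand above all coding genes: expansins had 4 of 37 (10.8% against 21.6%) and pectin enzymes 18 of 160 (11.25% against 27.5%). Arabinogalactan proteins, cell surface glycoproteins, had 19 of 59 (32.2%), and 40.7% in the input, with FLA13 at 6.69 and 9.20.

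The list of cyclin-dependent kinase inhibitors held those of the SIM/SMR and KRP families that the annotation names as such. Of these 17 genes, 8 had a region (47.1%, 22.98 to 72.2%), against 1 of 17 in the input (5.88%, 0.149 to 28.7%), with overlapping intervals. The study counts 17 SMR genes without the KRP genes, so that the list of 17 is incomplete. Its share is therefore not that of either family. After SMR2 came SMR6 (4.49 and 5.95), SMR9 (4.73 and 3.78) and SMR8 (4.02 and 4.48). Lower values were found at SMR4 (AT5G02220, 3.24 and 4.59), where an input peak overlapped the region, and at LGO (3.36 and 3.57), also known as SMR1, which enlarges epidermal cells in sepals. Of the KRP genes, ICK1 (3.87 and 3.71) and KRP6 (4.17 and 2.95) had summits just after the TSS. The cyclins and cyclin-dependent kinases that these proteins act on had 3 of 46 genes with a region (6.52%, and 6.52% in the input). These were CDC2 (also CDKA;1, 4.76 and 3.73), CYCD1;1 (3.51 and 3.73) and CYCD6;1 (3.69 and 2.81).

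Hormone genes were found from synthesis to response. The brassinosteroid list had 16 of 43 genes (37.2%, 22.98 to 53.3%), against 5 in the input (11.6%, 3.89 to 25.1%), with overlapping intervals. Its highest region lay upstream of DWF4, which encodes a rate-limiting hydroxylase of brassinosteroid synthesis (6.84 and 5.39). The receptor gene BRI1 had 3 regions (highest 5.35 and 4.91), the co-receptor gene BAK1 had 1 (3.62 and 3.88), and BIN2, the kinase that holds the pathway back, had 2 (highest 5.97 and 3.39). The inhibitor gene BKI1 (3.77 and 3.40), the response factor homologues BEH1, BEH2 and BEH3 (highest 5.98 and 5.67 at BEH3), and BEE1, BEE2 and BEE3, bHLH genes of early responses, were also among them. The genes named here thus include roles in synthesis, perception, repression and response, but the share with a region was not counted for each role.

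In the ethylene list 11 of 34 genes had a region (32.4%, 17.4 to 50.5%), against 2 in the input (5.88%, 0.720 to 19.7%), with overlapping intervals. The F-box genes EBF2 (6.85 and 7.34, 962 bp upstream of the TSS) and EBF1 (6.09 and 6.14, past the end of the gene) were the highest, and their proteins degrade EIN3 and EIL1. EIL1 itself had 6.44 and 5.18, and EIN3 had 3.87 and 2.93. ACS2, ACS6, ACS8 and ACS10, of the family of ACC synthases, had mean values between 3.88 and 4.63, and the receptors ERS1 and ETR2 had means of 3.66 and 2.60. Jasmonate repressors of the JAZ and TIFY list had 7 of 18 (38.9%, 17.3 to 64.3%, against 16.7%, 3.58 to 41.4%), with overlapping intervals. Their mean values were at most 4.47 (JAZ6).

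Among auxin genes, Aux/IAA repressors had 7 of 27 (25.9%, 11.1 to 46.3%, against 7.41%), with SHY2 (5.01 and 4.97) and IAA16 (5.71 and 4.03) near the top. The response factors ARF2, ARF6, ARF19 and ETT were the 4 of 22 ARF genes found (18.2%, 5.19 to 40.3%, against 9.09%). GH3 genes, whose enzymes conjugate auxin and jasmonate to amino acids, had 6 of 20 (30%, 11.9 to 54.3%, against 20%), and the SAUR genes of early auxin responses 12 of 78 (15.4%, 8.21 to 25.3%, against 11.54%). The intervals of these 4 lists overlapped. The GH3 genes WES1 (7.01 and 6.22), DFL2 (6.61 and 5.88) and DFL1 (5.32 and 6.74) each had 2 regions and were higher than any Aux/IAA or ARF gene. For gibberellin, GA20OX3 (6.06 and 5.39) and the receptor gene GID1B (4.43 and 6.10) were the highest of 8 of 37 genes (21.6% against 27.0%). For abscisic acid, PP2CA, a phosphatase that blocks signalling (5.59 and 8.09), and the receptor gene PYR1 (5.47 and 6.16) were the highest of 8 of 33 (24.2% against 30.3%).

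Surface receptors and immune receptors also had shares above all coding genes. The median stretch of chromosome nearest to these genes was 4905 bp for receptor-like kinases and 5361.5 bp for NBS-LRR genes. For all coding genes it was 3619.5 bp. It was 5334 bp for brassinosteroid and 5062.5 bp for ethylene genes, but 3503.5 bp for XTH genes and 2988.5 bp for the kinase inhibitors. The part of this length in the shares of these lists was not tested. Receptor-like kinases had 68 of 368 (18.5%, 14.6 to 22.8%), against 12.2% in the input (9.06 to 16.0%), among them FER, a receptor for RALF peptides that controls cell growth (8.46 and 5.84, 212 bp upstream), and TMK1, which acts in auxin signalling (6.96 and 7.26). NBS-LRR resistance genes had 29 of 168 (17.3%, 11.9 to 23.8%), against 7.74% (4.18 to 12.9%), led by AT1G63860 (7.25 and 7.60). For receptor-like kinases and NBS-LRR genes alike, the intervals overlapped those of the input. Ribosomal protein and F-box genes had the lowest shares of the lists plotted. Ribosomal protein genes had 14 of 344 (4.07%, 2.24 to 6.73%), against 10.2%, and F-box genes, a very large and partly tandem-repeated family, had 28 of 589 (4.75%, 3.18 to 6.80%), against 9.51%. Photosystem and light-harvesting genes had 4 of 45 (8.89%, 2.48 to 21.2%), against 37.8% in the input (23.8 to 53.5%). With replicate 1 alone they had 9 of 45 (20%). The interval of 2.48 to 21.2% includes this share and the 11.2% of all coding genes, so that no place above or below all coding genes is shown.

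With replicate 1 alone, 13.7% of the coding genes had a peak, and the counts were 18 for XTH, 8 for the kinase inhibitors, 19 for brassinosteroid and 15 for ethylene. Of the lists plotted, 5 moved by 1.5 times or more in count. With replicate 1 alone, the abscisic acid list had 12 of 33 genes (36.4%), heat shock proteins and chaperones 26 of 180 (14.4%, against 8.89% in both replicates), and HSF factors 6 of 24 (25%, against 16.7%). The photosystem list had 9, as above, and NF-Y subunits had 1 of 35 (2.86%). At a −log10 q of at least 5 in both replicates 5.17% had a region, and XTH, kinase inhibitor, brassinosteroid and ethylene genes had 10, 5, 9 and 8. Among genes with a region, the highest mean fold per gene had a median of 3.98 for XTH, 4.08 for the kinase inhibitors, 4.07 for brassinosteroid, 4.24 for ethylene and 3.93 for transcription factors, beside 3.87 for all coding genes.

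Most genes had a single region. Of the 3503 genes, 583 (16.6%, 15.4 to 17.9%) had 2 or more, against 13.1% (12.2 to 14.1%) of the input genes, and 114 had 3 or more, against 131 in the input. The regions of a gene were a median of 1439 bp apart (interquartile range 859 to 2358 bp). STP1, a hexose transporter gene, had the most, with 7 regions. Their summits ran at 3498, 2886, 2145, 1235 and 478 bp before the TSS, 3 bp after it and 2981 bp after it. Mean fold enrichments lay between 3.60 and 4.40, a narrow range. The region farthest upstream was uneven, at 2.32 in replicate 1 and 5.16 in replicate 2. None of the 7 windows had a G-box. The stretch of chromosome nearest to STP1 was 10401.5 bp, against a median of 3619.5 bp for all coding genes. It also had 2 input peaks. The part of this length in the number of regions per gene was not tested.

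DREB26, HB-2, XTH24 and WRKY11 had 5 regions each. The stretches of chromosome nearest to them were 6559, 8030.5, 4038 and 4334.5 bp, and only HB-2 had an input peak. At HB-2 the summit 1717 bp upstream of the TSS had the highest values (7.46 and 7.75), and those 3043, 4835 and 5624 bp upstream lay in windows with 2, 2 and 1 G-boxes. At WRKY11, a negative regulator of defence, summits 1315, 738 and 11 bp upstream were followed by an intronic region and another past the gene, with means between 3.25 and 4.48. A further 16 genes had 4 regions, among them NRT1.1, a nitrate transporter and sensor (5.87 and 6.11 at an intron), NCED3, which makes abscisic acid precursors under drought, STZ, a zinc finger gene of stress responses, and GLN1;4, a glutamine synthetase. At the last of these, all summits lay beyond the end of the gene, 4661 to 7393 bp after the TSS. The stretches nearest to NRT1.1 and NCED3 were 11584.5 and 13677.5 bp, with 1 input peak each. Of the 583 genes, 117 (20.1%) had all their regions upstream, and 101 (17.3%) had regions both before the TSS and past the end.

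**Figure D4:**
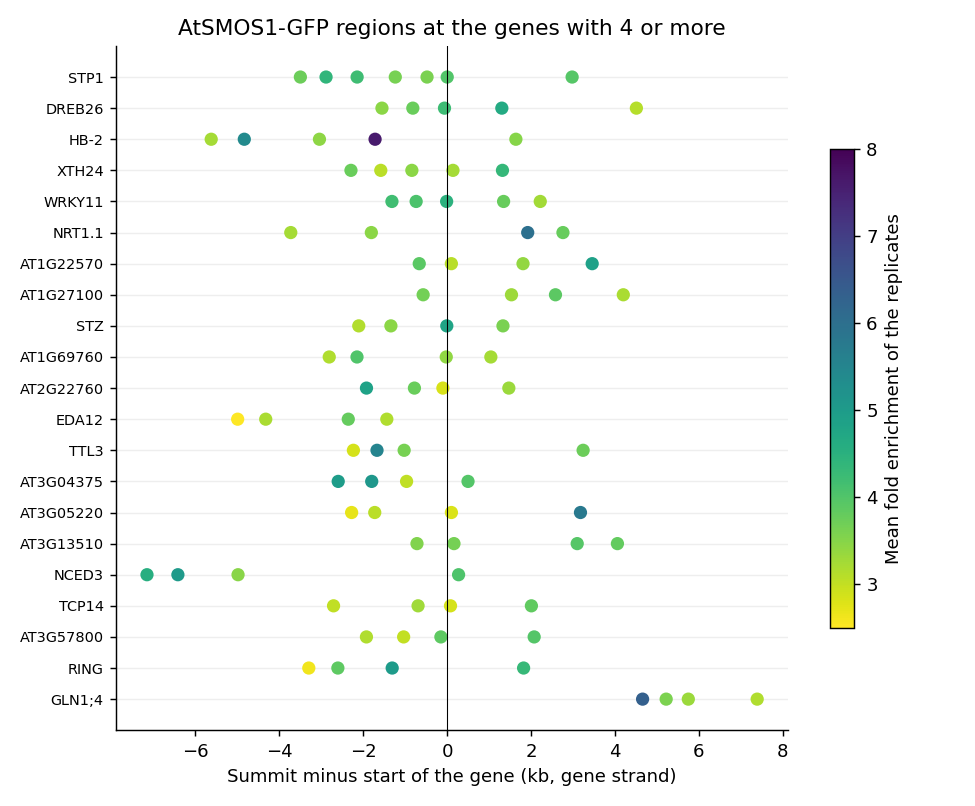
Summits of AtSMOS1-GFP regions at the 21 genes with 4 or more, by distance from the gene start (horizontal, kb on the gene strand), with a row per gene and the mean fold enrichment of the replicates as the colour. STP1 has 7 summits from 3498 bp before to 2981 bp after its start. The gene labelled RING is AT4G19700.

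Some regions ran along most of a gene body. Of 45 regions of 1 kb or more, 3 were longer than 2 kb. The longest, 4451 bp beside the tRNA gene AT1G79240, was 1 peak in replicate 2 and 6 peaks in replicate 1 (6.66 in replicate 1 and 6.74 in replicate 2). The next, of 2468 bp, lay at AT1G61890, a MATE efflux gene (4.47 and 4.36), which also had a second region of 1448 bp. Then came the region over TCH4. Regions at SZF1, a salt-induced zinc finger gene (1601 bp), GILP (1591 bp) and AT4G27657 (1949 bp) followed, and the median over all regions was 351 bp. None of the 15 longest overlapped an input peak.

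Regions were both clustered and absent from long stretches. Neighbouring summits were a median of 12098 bp apart, against 13307.5 bp in the input, while the means were 28132 and 20913 bp. Gaps of up to 2 kb made up 18.5% of the gaps (17.3 to 19.7%), against 14.0% (13.1 to 14.9%), and gaps of up to 5 kb 33.4% against 23.3%. Of the 1412 gaps of up to 5 kb, 706 were between regions of the same gene. In windows of 1 Mb there were 0 to 85 regions (median 39), against 19 to 158 input peaks (median 47). Spearman's rho with the number of coding genes was 0.69 for the regions and 0.07 for the input peaks (n = 116 windows, which share chromosome structure with their neighbours). Each chromosome had a gap of 1122958 to 1900764 bp without a region, in which 33 to 192 input peaks lay.

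The densest stretch of 20 kb held 10 regions and no input peak, at chr4:14807921-14827169 between the outermost summits, where XTH24, XTH18 and AT4G30240 were the nearest genes. Their mean fold enrichments were between 2.84 and 4.33, so that it held no region of the top of the ranking. Stretches with 9 regions lay at CYP83B1, which acts in glucosinolate synthesis, and WRKY11 (chr4:15273402-15293249), at TMK1 and CMPG1 (chr1:24630351-24650275, with a mean of 7.11 at its highest region), at CIPK7 and IAA2 (chr3:8167445-8186909) and at MYB47 (chr1:6444520-6463606, with 3 input peaks). In the input the most peaks in 20 kb were 18.

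In the 200 bp around summits, a G-box was found in 682 regions (16.1%, 15.03 to 17.3%), against 307 input peaks (5.39%, 4.82 to 6.01%). It was in 5.07% of the 200 bp windows before all gene starts and in 2.19% of consecutive 200 bp windows of the 5 chromosomes. The sequences printed above for PUB18 and AT4G36170 show regions with 2 G-boxes, and 2 or more were found in 114 regions (2.70%), against 0.737% of the input peaks. G-boxes were concentrated at the summit, with 3.38 per 100 regions in the 25 bp just before it, against 0.650 per 100 input peaks. The input peaks had a median GC content of 49%, the regions 35% and the windows before gene starts 31.5%, and within the regions the G-box share rises with GC content. At 35 to 40% GC, 17.4% of the regions had a G-box, against 1.48% of the input peaks and 8.03% of the windows before gene starts, and at 40 to 45% these were 32.1%, 4.57% and 13.4%.

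**Figure D5:**
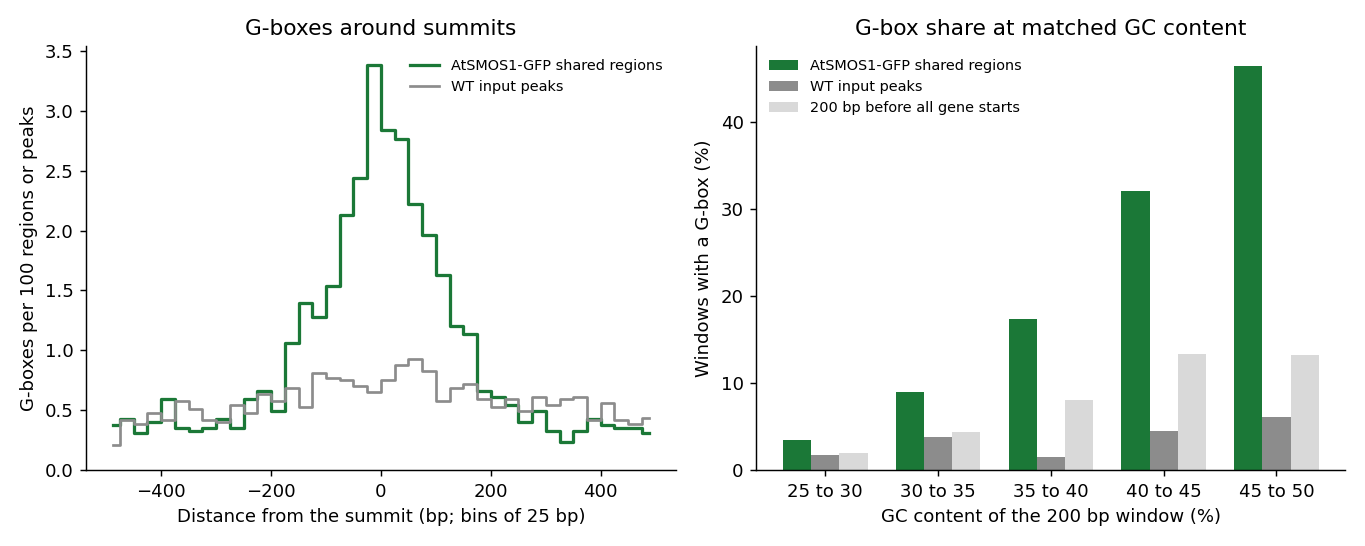
Left, G-boxes per 100 AtSMOS1-GFP regions (green) or WT input peaks (grey) in bins of 25 bp around the summit. Right, percentage of 200 bp windows with a G-box in bins of GC content, for the regions (green), the input peaks (dark grey) and the 200 bp before all gene starts (light grey). The regions have 3.38 G-boxes per 100 just before the summit, against 0.650 in the input, and a higher share at each GC content shown, from 25 to 50%. Bins with 20 or fewer regions are left out, and at 20 to 25% GC none of 20 regions had a G-box, against 1.10% of the input peaks and 1.09% of the windows before gene starts.

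The presence of a G-box did not go with the fold enrichment. Regions with it had a median of 3.82 in replicate 1, against 3.84 for those without, and 3.73 against 3.73 in replicate 2. Its share was 15.8% in the quintile with the highest mean fold and 15.3% in the lowest. The SCL28/AtSMOS1 motif was in 2.48% of the highest quintile and 0.237% of the lowest. As the study derived it from common peaks of SCL28 and AtSMOS1 in this experiment, its shares and medians here are not independent support. It was in 52 regions in all (1.23%, 0.920 to 1.61%), against 4 input peaks (0.0702%), 0.166% of the windows before gene starts and 0.190% of the consecutive windows. Its 52 regions had medians of 4.25 and 4.34 in the replicates, against 3.83 and 3.73 for the rest. GGATNC, which is contained in that motif, was in 17.4% of the regions and 18.7% of the input peaks.

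Other short motifs were searched on both strands in the same windows. TTGAC, the core of the W-box that WRKY factors bind, was in 46.2% of the regions, 26.9% of the input peaks and 38.0% of the windows before gene starts. TGTCTC, the auxin response element, was in 15.1%, 9.04% and 8.97%. TGGGCC, the site II element that TCP factors bind, was in 9.44%, 5.16% and 11.4%. CCGAC, the core of the element bound by DREB proteins, was in 14.6%, 23.9% and 9.74%, and GCCGCC, the GCC-box bound by ERF proteins, was in 2.1996%, 18.6% and 1.48%. AACGG, the core of the mitosis-specific MSA element, was in 17.1%, 26.0% and 17.2%. CCGAC and GCCGCC are motifs of the AP2/ERF family and are rich in G and C, as the input peaks are. The G-box, the W-box core and the auxin element were thus more frequent in the regions than in both other sets, and TGGGCC and AACGG were not.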

How the data were processed

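ChIP-Seq was performed by the authors with an anti-GFP antibody on seedlings expressing AtSMOS1-GFP (2 replicates) and on WT total chromatin as the input (1 sample). Per the labels and methods, reads were trimmed with Trimmomatic 0.38 and mapped to TAIR10 with Bowtie2 2.3.5, SAMtools 1.9 was used, and peaks were called per sample with MACS2 2.2.7.1 at a q value cutoff of 0.05. The sources differ on the mapping settings, the fragment size and whether sharp or broad peaks were called, and the lists have the narrow layout. The authors' caller wrote the fold enrichment, a ratio at the summit over the local background, and the −log10 p and −log10 q, which were used as deposited. The control used for the input list is not given in the sources used here. A list of peaks holds no counts, and the depth was not analyzed here.

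Peaks sharing at least 1 bp between replicates were merged into regions. The fold of a replicate was its highest in the region, regions were ranked by the mean, and the summit was the midpoint of the replicates' summits. The nearest gene was that closest to the summit among 33056 genes of the TAIR10.1 annotation (RefSeq), without 4843 pseudogenes. Chromosomes 1 to 5 of TAIR10.1 are those of TAIR10, and sequences were read from it. Families were matched by domain, symbol and product. A gene list is not reported here. Members, lists and motifs were chosen with earlier results of these data known. The genes named are the 20 highest regions, the genes with most regions, the densest stretches of 20 kb, and up to 3 top members per list. Further members of lists, the regions of 1 kb or more and lower members were named after their values were seen. Intervals are exact 95% binomial (Clopper-Pearson) and cover counting error only, and regions are not replicates, so no p value is given. Alternatives were each replicate alone, a −log10 q of at least 5, overlap of 50% of both peaks, regions on input peaks left out, coding genes alone, other summits, promoters and windows. The functions were tested on simulated data. Python 3.11.15, numpy 2.4.6, scipy 1.17.1 and matplotlib 3.10.9 were used. Peaks on organelle genomes were left out (1 in replicate 1, 0 in replicate 2 and 184 in the input).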

Additional observations from a re-analysis of the deposited data

How the results depend on the processing

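Of 52 alternatives run for the 8 main results, 29 stayed within the interval of the main value or within 1.5 times of a count, and 23 moved. With each replicate alone, the number of regions was 5436 (replicate 1) to 6932 (replicate 2), the genes nearest to them 4286 to 5393, and the median gap 6988 to 8979 bp. Genes with 2 or more were then 19.8 to 21.05%, regions with a G-box 14.0 to 15.02%, and transcription factor genes with a region 24.1 to 29.8%. The share on input peaks was 0.497 to 0.534% and that within 1 kb upstream of a TSS 47.3 to 47.5%. At a −log10 q of at least 5 in both replicates there were 1780 regions at 1622 genes, with a median gap of 33351 bp, 8.82% of the genes with 2 or more, and 11.2% of transcription factor genes with a region. With an overlap of 50% of both peaks, the median gap was 17688.5 bp, 13.2% of the genes had 2 or more, and 17.5% of transcription factor genes had a region. With protein-coding genes alone, 42.6% of the summits were within 1 kb upstream of a TSS and 19.1% of the genes had 2 or more. Promoters of 500 bp and 2 kb held 31.9% and 65.3% of the summits, and the 100 bp window held a G-box in 10.2%. Leaving out regions on input peaks moved none of the 7 results it was run for. Shares of families with a single replicate or a stricter q value were added after seeing the data. The JAZ and TIFY list then had 27.8% with replicate 1 alone and 16.7% at the stricter q value. No paired analysis was possible because the input has replicate 1 only and a list of peaks gives no value at sites that it does not call. The number of peaks depends on depth, which the lists do not hold, so that a gene without a region is not shown to lack AtSMOS1.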
